A study of Mus musculus with 12 samples.

Results

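Meg3, Rian, Airn, Kcnq1ot1, Peg13, Igf2os and Nctc1 are long non-coding RNAs that belong to imprinted loci of the mouse or, for Nctc1, lie beside one. They were chosen by name, with earlier results of these data known. Each is carried by a probe whose RefSeq accession is assigned to that gene. Where a gene has several probes, the rule takes the probe of highest mean level, a choice that did not arise here. All 7 members had 1 probe each and all 7 passed the filter on dim probes, out of 4288 named genes on the array, of which 2514 passed, and 72515 tested features in all. Spleen RNA of female BALB/c mice, 6 weeks old per the labels, was hybridised to 12 single-colour Agilent arrays in 4 groups. The OVA mice were injected intraperitoneally with ovalbumin, an egg-white protein, at 2 mg/kg on days 1, 3 and 5 (3 injections), and their spleens were taken on day 14 (4 arrays) or day 28 (4 arrays). The control mice received normal saline on the same schedule, with 2 arrays on day 14 and 2 on day 28. The labels name no adjuvant and no later challenge with the antigen, and they do not say whether an array holds 1 spleen or a pool. The p-values therefore measure only the spread between these samples, which may be technical.

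At an imprinted locus the maternal and the paternal copy of a gene are used unequally, because a control region was methylated in only one of the germ lines. Many such loci hold a long non-coding RNA that is read from one parental copy, and for Airn and Kcnq1ot1 its transcription is known to keep neighbouring genes of the same chromosome silent. The array reads the sum of both parental copies, so nothing below speaks of imprinting itself.

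A level is the log2 of a probe's signal minus the log2 of the 75th percentile of signal on its array, and a difference is a difference of such levels. Levels are compared between arrays for 1 probe, never between probes. Each adjusted p comes from limma with Benjamini-Hochberg adjustment over all 72515 tested features, and a difference was called where it was under 0.05. Intervals are 95% intervals of the limma fit.

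Of the 3 slides, 1 carried the 4 OVA day 14 arrays, another the 4 OVA day 28 arrays and another all 4 saline arrays. Slide and group therefore cannot be told apart in any comparison except saline day 28 with saline day 14. On the saline slide day 14 held positions 1 and 2 and day 28 positions 3 and 4, so day and position coincide there. OVA day 28 arrays were brighter, with a 75th percentile of 483.8 to 549.3 signal units against 266.7 to 368.1 on all others, and 57.5% (OVA day 14 replicate 2) to 80.0% of spots were well above background. Saline day 14 replicate 1 carried a stretch of raised signal that reached 1 spot of 1 member (Igf2os). Agilent spike-in probes read RNA added in equal amount, and the 8 that were well above background throughout were used. Relative to that percentile, they averaged 0.25 higher in OVA than in saline on day 14 and 0.02 higher on day 28. They averaged 0.12 lower in OVA day 28 than in OVA day 14. Single probes ranged from 0.14 to 0.37, from -0.41 to 0.50 and from -0.46 to 0.18 in these comparisons. Of 43 marker genes of spleen cell types, 0 had a named probe, so the labelled tissue could not be checked by them. In whole spleen, fewer cells of a type and less RNA per cell cannot be told apart.

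Nctc1 and Meg3 were the 2 members with a called difference. Relative to the array percentile, both were lower in OVA spleens on day 28 than in OVA spleens on day 14, 1.25-fold and 1.24-fold. Before scaling, their geometric mean signals were higher on day 28, 188 against 129 for Nctc1 and 183 against 124 for Meg3. Nctc1 was in addition higher in OVA than in saline when the 2 days were averaged. Over all features, 34.1% were called between the OVA groups and 6.52% in the mean over both days. The remaining 5 members had no called difference in any of the 6 comparisons. The promoters of Meg3 and Nctc1, as RefSeq annotates them on GRCm38.p6, are shown because these 2 genes carry the called differences. Each runs 5′ to 3′ along the gene's strand from 250 bases before the start of the transcript to 50 bases after it, with motif matches in capitals. The Meg3 window lies at chr12:109540746-109541045 on the plus strand, and that of Nctc1 at chr7:142558549-142558848 on the minus strand.
Meg3: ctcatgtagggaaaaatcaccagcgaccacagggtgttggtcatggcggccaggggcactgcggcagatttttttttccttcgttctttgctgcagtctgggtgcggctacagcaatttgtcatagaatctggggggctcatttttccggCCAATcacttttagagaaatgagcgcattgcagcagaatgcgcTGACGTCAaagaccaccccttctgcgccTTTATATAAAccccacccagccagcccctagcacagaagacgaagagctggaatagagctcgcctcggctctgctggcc
Nctc1: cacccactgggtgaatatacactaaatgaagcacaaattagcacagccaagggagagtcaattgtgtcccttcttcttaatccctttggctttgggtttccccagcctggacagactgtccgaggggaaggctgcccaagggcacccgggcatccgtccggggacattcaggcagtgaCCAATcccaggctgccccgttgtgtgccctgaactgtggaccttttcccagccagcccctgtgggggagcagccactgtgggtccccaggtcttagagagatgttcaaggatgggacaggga
Both windows hold 1 match to CCAAT, on the strand shown, 100 bases before the start of Meg3 and 72 bases before that of Nctc1. That motif occurs, on either strand, in 37.4% of the 32851 promoter windows of the table. In the Meg3 window the capitals also mark 1 match to TGACGTCA, 57 bases before the start, a sequence searched after the window had been read and held by 1.79% of promoters. They further mark 2 overlapping matches to TATAAA, 1 on each strand, starting 29 and 25 bases before the start, a motif held by 13.6% of promoters. The Nctc1 window has no TATAAA, and neither window has GGGCGG, the other motif searched on both strands, which 35.7% of promoters hold. The Meg3 window has 13 CG dinucleotides and a GC content of 53.7%, against 5 and 57.3% in the Nctc1 window and medians of 7 and 52.7% over all promoters. RefSeq lists another start for Meg3 whose window holds 1 CG. Of the other members, Rian, Airn and Kcnq1ot1 also have a promoter in the table. The Rian window has 0 CG dinucleotides, which 5.43% of promoters share, Airn has 3 and Kcnq1ot1 has 9 with 3 matches to CCAAT. A match describes letters only and was not tied to any factor here.

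Nctc1 is a non-coding RNA transcribed downstream of H19, next to the H19 and Igf2 genes on chromosome 7, and is best known from skeletal muscle. Its probe (1 spot, RefSeq NR_002452) gave 106 to 204 signal units and was well above background on 12 of 12 arrays. The levels were -1.06, -1.20, -1.08 and -1.09 on the OVA arrays of day 14, against -1.75 and -1.55 on the saline arrays of day 14. They were -1.31, -1.32, -1.53 and -1.56 on the OVA arrays of day 28, against -1.59 and -1.57 on the saline arrays of day 28. Every OVA array of day 14 lay above every other array of the study, and the OVA arrays of day 28 lay between those and the saline arrays of day 28, replicates 3 and 4 close to the saline values.

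Averaged over both days, Nctc1 was 0.34 ± 0.08 (SE) higher in OVA than in saline (interval 0.18 to 0.51, 1.27-fold, adjusted p = 0.027 by limma). It was the only one of the 7 members called in that comparison, in which 6.52% of all features were called and 4.95% were called as higher. The call rests on small margins: it was lost in 11 of 25 alternative settings, among them spike-in scaling, where the difference was 0.21 with an adjusted p of 0.134, and the omission of 1 array in 6 of 12 cases. Without saline day 14 replicate 1 the difference was 0.30 (adjusted p = 0.0584 by limma), and over all 12 omissions it lay between 0.30 and 0.39. The difference remained positive in all 25. The mean hides unequal days. On day 14 Nctc1 averaged -1.11 ± 0.06 in OVA (SD, n = 4) and -1.65 ± 0.14 in saline (SD, n = 2), a difference of 0.54 ± 0.11 (SE; interval 0.30 to 0.78) that missed the threshold (adjusted p = 0.094 by limma) and was 0.28 with spike-in scaling. On day 28 it averaged -1.43 ± 0.14 in OVA and -1.58 ± 0.01 in saline, a difference of 0.15 ± 0.11 (SE; interval -0.09 to 0.39, adjusted p = 0.384 by limma), or 0.012 under normexp, a background correction that models signal and background jointly. The effect at day 28 minus the effect at day 14 was -0.39 (interval -0.72 to -0.05), and it too was not called (adjusted p = 0.172 by limma, unadjusted 0.0285). With spike-in scaling it was -0.15.

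Between the OVA groups, Nctc1 was lower on day 28 than on day 14 by 0.32 ± 0.09 (SE; difference -0.32, interval -0.52 to -0.13, 1.25-fold, adjusted p = 0.0173 by limma), and the 2 groups did not overlap. The saline arrays of day 28 and day 14 differed by 0.07 (interval -0.21 to 0.34, adjusted p = 0.891 by limma). In the comparison of the OVA groups 34.1% of all features were called, 19.1% as lower, and 36.7% did not overlap, so 2 called members of 7 is a share close to that of all features. With spike-in scaling the Nctc1 difference was -0.20 and was not called (adjusted p = 0.164 by limma), and without OVA day 28 replicate 3 the adjusted p was 0.0556. It was called in the other 24 of 26 alternatives.

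**Figure D1:**
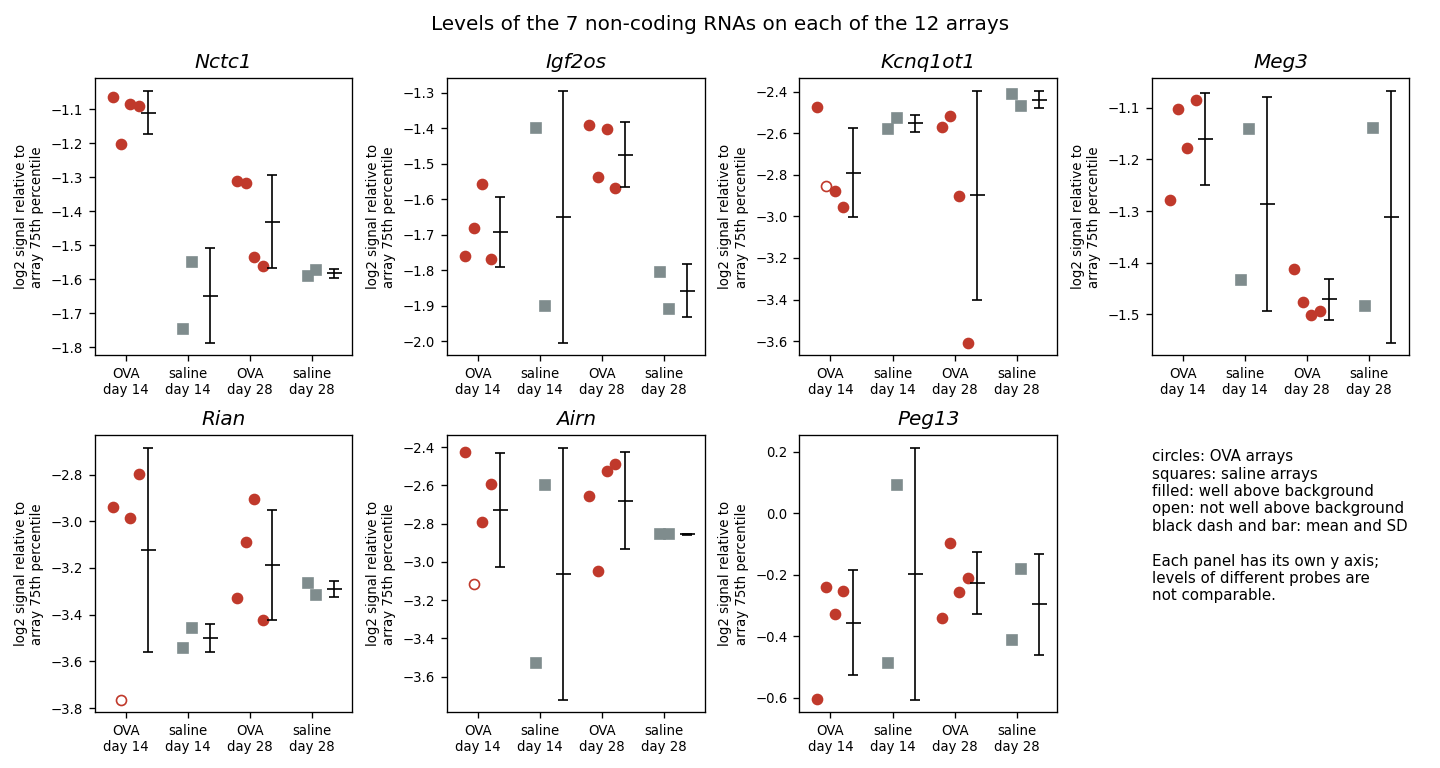
Level of each member on each of the 12 arrays, as log2 of signal over that array's 75th percentile, in 1 panel per RNA with OVA left of saline on each day. Points are arrays, filled where the probe was well above background, and bars are group means ± SD; the 4 OVA arrays of day 14 stand above all others for Nctc1, and the OVA arrays of day 28 stand below those of day 14 for Meg3.

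Igf2os, the antisense transcript of the growth factor gene Igf2, comes from the same region of chromosome 7. Its probe (2 spots, RefSeq NR_002855, named IGF2AS on the array) read 81.0 to 187 signal units and was above background on 12 of 12 arrays. The levels were -1.76, -1.68, -1.56 and -1.77 in OVA and -1.40 and -1.90 in saline on day 14. On day 28 they were -1.39, -1.54, -1.40 and -1.57 in OVA, against -1.80 and -1.91 in saline. The OVA arrays of day 28 all stood above the saline arrays of that day, whereas on day 14 the 4 OVA values fell between the 2 saline values. The difference on day 28 was 0.38 ± 0.14 (SE; interval 0.09 to 0.68, 1.30-fold) and was not called (adjusted p = 0.0817 by limma, unadjusted 0.0159). On day 14 it was -0.04 (interval -0.34 to 0.25, adjusted p = 0.915 by limma), and the effect at day 28 minus that at day 14 was 0.43 (interval 0.01 to 0.85, adjusted p = 0.218 by limma). Under normexp the day 28 difference was 0.17 and that between the effects 0.019. Without saline day 14 replicate 1 the difference between the effects was 0.17, and without saline day 14 replicate 2 it was 0.68.

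One of the 2 Igf2os spots on saline day 14 replicate 1 lay in a stretch of the array where signals were raised. The 848 spots around it had a median excess of 0.47 over each spot's mean of all 12 arrays. That spot read -1.25, and the level from the other spot alone was -1.55. Without that spot the day 14 difference was 0.03 (adjusted p = 0.927 by limma), so its sign turned, and the day 28 difference of 0.38 had an adjusted p of 0.0532. Around the remaining member spots the local deviation stayed within 0.2. The day 28 difference was called in 3 of 26 alternatives, with array weights (0.40, adjusted p = 0.0476 by limma) and without either saline array of day 14.

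Nctc1 and Igf2os share the locus. The OVA groups did not overlap for Nctc1, whereas for Igf2os they did, with OVA day 28 minus OVA day 14 at 0.22 (interval -0.02 to 0.46, adjusted p = 0.150 by limma) and at -0.043 under normexp. The difference between the 2 patterns was not tested.

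Kcnq1ot1, the transcript that silences genes of the Kcnq1 and Cdkn1c domain on the same chromosome when read from the paternal copy, gave 35.6 to 88.9 signal units over 2 spots and was above background in both spots on 11 of 12 arrays, all but OVA day 14 replicate 2. The levels were -2.48, -2.85, -2.88 and -2.96 in OVA and -2.58 and -2.53 in saline on day 14. On day 28 they were -2.57, -2.52, -2.90 and -3.61 in OVA, against -2.41 and -2.47 in saline. All 4 OVA arrays of day 28 lay below both saline arrays of that day, replicates 1 and 2 by little, and replicate 4 lay far below the rest in both of its spots (-3.48 and -3.74). The difference was -0.46 ± 0.25 (SE; interval -1.02 to 0.10, adjusted p = 0.249 by limma) on day 28 and -0.24 ± 0.25 (interval -0.79 to 0.32, adjusted p = 0.707 by limma) on day 14. An interval reaching from about 1 below to 0.10 above leaves this RNA's response on day 28 undetermined at this number of arrays. Without OVA day 28 replicate 4 the day 28 difference was -0.22 (adjusted p = 0.379 by limma), and over all omissions of 1 array it lay between -0.59 and -0.22. It was also -0.22 with the replicate number as a block and -0.70 with the array position as a block. With normexp background correction the day 28 difference was -0.39 and was called (adjusted p = 0.0298 by limma). That call came with many more calls over all features on day 28, most of them as lower. With normexp 27606 features were called, 23% of them as higher, against 10191 and 52.9% in the main setting.

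Meg3 heads the maternally expressed non-coding RNAs of the Dlk1-Dio3 locus on chromosome 12 and is studied as a growth suppressor. Its probe (2 spots, RefSeq NR_027652) read 117 to 195 signal units, above background on 12 of 12 arrays. The levels were -1.41, -1.48, -1.50 and -1.49 on the OVA arrays of day 28, against -1.28, -1.10, -1.18 and -1.08 on the OVA arrays of day 14. The saline arrays gave -1.48 and -1.14 on day 28, against -1.43 and -1.14 on day 14. The 4 OVA arrays of day 28 were tightly grouped and all below those of day 14, while in each pair of saline arrays 1 array lay near the OVA arrays of day 28 and the other among those of day 14.

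OVA day 28 averaged -1.47 ± 0.04 and OVA day 14 -1.16 ± 0.09 (SD, n = 4 each), a difference of -0.31 ± 0.10 (SE; interval -0.53 to -0.09, 1.24-fold lower, adjusted p = 0.0318 by limma). The call was lost in 9 of 26 alternatives, including spike-in scaling (-0.19, adjusted p = 0.215 by limma), the fit with no filter on dim probes (adjusted p = 0.0528), and the omission of OVA day 28 replicate 3 (adjusted p = 0.0752) or of OVA day 14 replicate 2, the dimmest array (-0.29, adjusted p = 0.0709), and the difference remained negative in all 26. Against saline nothing was called for Meg3: the difference was 0.13 (interval -0.14 to 0.39, adjusted p = 0.667 by limma) on day 14 and -0.16 (interval -0.43 to 0.11, adjusted p = 0.412 by limma) on day 28. The 2 saline arrays of 1 day differed by about as much as the OVA groups did.

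Rian, a maternally expressed host of small nucleolar RNAs downstream of Meg3, was dim, with 19.6 to 64.6 signal units in its 1 spot. For scale, the 600 negative control spots had medians of 2.57 to 6.96 signal units across arrays. Rian was above background on 11 of 12 arrays, all but OVA day 14 replicate 2, whose level of -3.76 stood apart from -2.94, -2.99 and -2.80 on the other OVA arrays of that day. The saline arrays of day 14 gave -3.54 and -3.46. On day 28 the levels ranged over -3.42 to -2.91 in OVA and were -3.26 and -3.31 in saline. The differences were 0.38 (interval -0.13 to 0.89, adjusted p = 0.483 by limma) on day 14 and 0.10 (interval -0.41 to 0.61, adjusted p = 0.811 by limma) on day 28. Without OVA day 14 replicate 2 the day 14 difference was 0.59 and with spike-in scaling 0.12. Leaving out 1 array at a time moved it between 0.27 and 0.59, and the day 28 difference between 0.0087, without OVA day 28 replicate 3, and 0.18. The OVA groups overlapped in Rian: day 28 minus day 14 was -0.07 (interval -0.48 to 0.35, adjusted p = 0.817 by limma), an interval that includes the Meg3 value.

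Mirg, the microRNA host transcript at the far end of the same locus, is carried by a probe that the array names MEG9. It was above background on 9 of 12 arrays, with levels of -4.31, -3.90, -4.13 and -4.02 on OVA day 28 and -3.79, -4.01, -3.24 and -3.77 on OVA day 14, and these groups overlapped. The difference was -0.39 (interval -0.77 to -0.01) and was not called (adjusted p = 0.104 by limma). Against saline the Mirg difference was 0.39 (interval -0.08 to 0.85) on day 14 and -0.35 (interval -0.81 to 0.12) on day 28, neither called, and the effect at day 28 minus that at day 14 was -0.74 (adjusted p = 0.179 by limma). Among 94 imprinted genes listed beside the members, 86 were in the RefSeq table, 4 had a named probe and 1, Mirg, was bright enough to be tested. Zim3 and Platr20 were above background on 0 arrays and Tsix on 1.

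Airn, the paternally expressed RNA that overlaps Igf2r on chromosome 17 and silences it, gave 30.8 to 97.8 signal units in its 1 spot, above background on 11 of 12 arrays, again all but OVA day 14 replicate 2. The levels were -2.42, -3.12, -2.79 and -2.59 in OVA and -3.53 and -2.60 in saline on day 14. The 2 saline arrays of that day differed by more than any pair of OVA arrays. On day 28 the levels were -2.66, -3.05, -2.53 and -2.49 in OVA, against -2.86 and -2.85 in saline. The differences were 0.33 (interval -0.22 to 0.89, adjusted p = 0.578 by limma) on day 14 and 0.17 (interval -0.38 to 0.73, adjusted p = 0.691 by limma) on day 28. Leaving out 1 array at a time moved the day 14 difference between -0.13, without saline replicate 1, and 0.80, without saline replicate 2, so its sign depends on which arrays are in the fit, and the day 28 difference between 0.11 and 0.30, the highest without OVA day 28 replicate 2.

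Peg13, a paternally expressed RNA from an intron of Trappc9 on chromosome 15, read 189 to 475 signal units over 2 spots, above background on 12 of 12 arrays. It averaged -0.36 ± 0.17 in OVA (SD, n = 4) and -0.20 ± 0.41 in saline (SD, n = 2) on day 14. On day 28 it averaged -0.23 ± 0.10 in OVA and -0.30 ± 0.16 in saline. The groups overlapped on both days. The differences were -0.16 (interval -0.52 to 0.20, adjusted p = 0.692 by limma) on day 14 and 0.07 (interval -0.29 to 0.43, adjusted p = 0.815 by limma) on day 28.

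**Figure D2:**
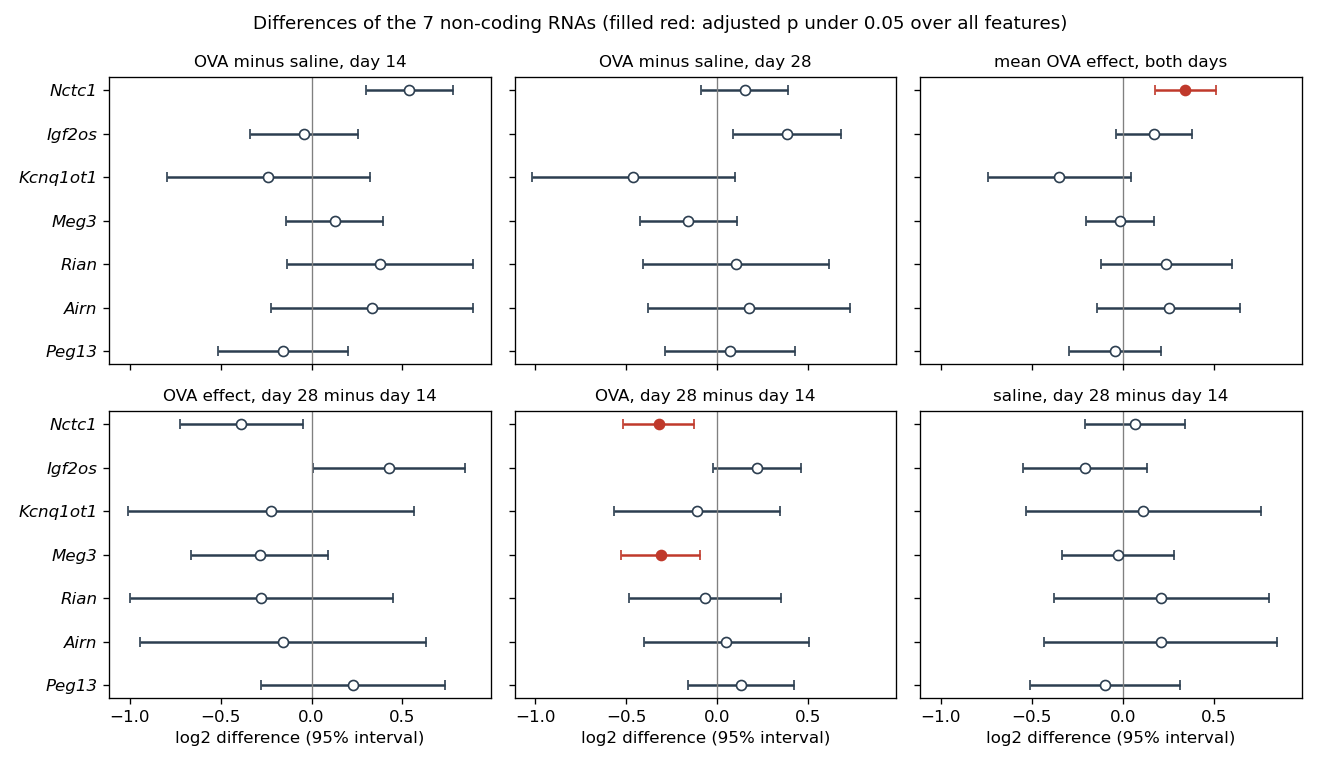
Difference of each member in 6 comparisons, in log2 units, with 95% intervals of the limma fit; filled points are called at an adjusted p under 0.05. The called differences are Nctc1 in the mean OVA effect (0.34) and Nctc1 (-0.32) and Meg3 (-0.31) between OVA day 28 and OVA day 14.

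Across the 7 members, OVA against saline on day 14 gave 0 called differences at an adjusted p under 0.05, where 0.0676% of all features were called. At an unadjusted p under 0.05 there was 1 member (Nctc1), against 14.7% of all features. Nctc1 was also the 1 member whose OVA and saline arrays did not overlap, against 23.1% of all features. The members' median difference was 0.13, and that of all features 0.05.

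On day 28 there were 0 called members, where 14.1% of features were called. One member (Igf2os) had an unadjusted p under 0.05, against 30.2% of features. In 3 members, Igf2os and Nctc1 upward and Kcnq1ot1 downward, the OVA and saline arrays did not overlap, against 42.2% of features. The members' median difference was 0.10, and that of all features -0.03. These shares were near or below those of all features.

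The effect at day 28 minus the effect at day 14 gave 0 called members against 2.95% of features, and 2 members (Nctc1 and Igf2os) at an unadjusted p under 0.05 against 22.3%. Saline day 28 against saline day 14, which lay within 1 slide, gave 0 called members against 0.00138% of features, and 0 at an unadjusted p under 0.05 against 10.3%. In 2 members (Rian and Kcnq1ot1) the saline groups of 2 arrays did not overlap, where 37% of features did not. The members' median difference was -0.07 between the OVA groups and 0.07 between the saline groups, and that of all features -0.06 and 0.03.

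**Figure D3:**
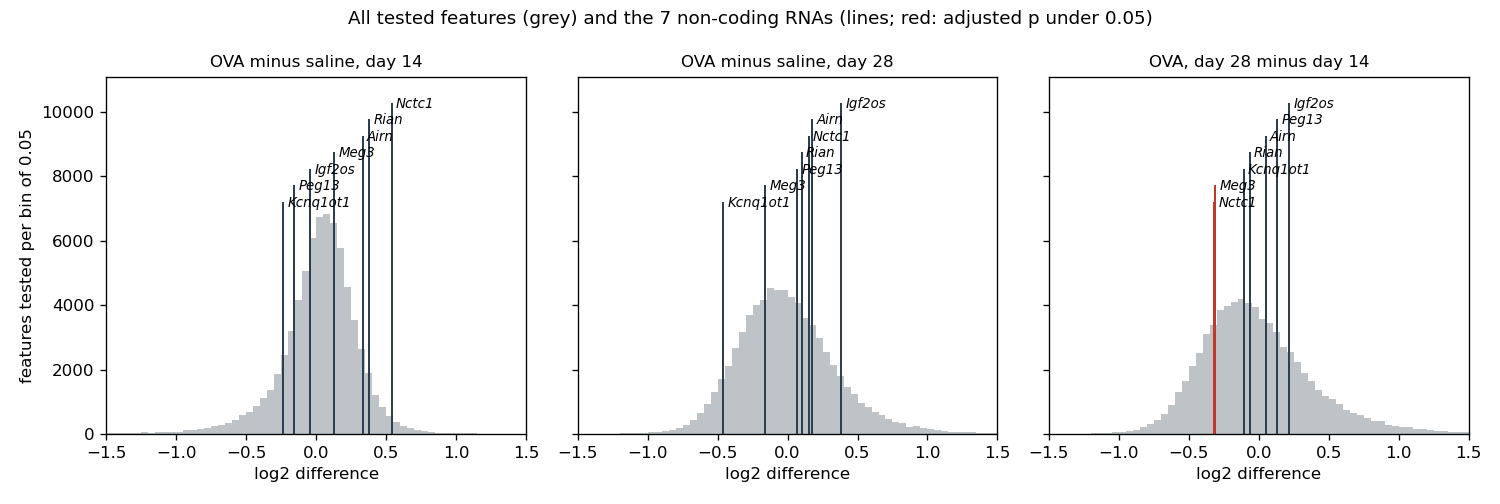
Distribution of the log2 differences of all 72515 tested features (grey), with each member marked by a line, for OVA minus saline on each day and for OVA day 28 minus OVA day 14. The SD of all features' differences was 0.29 on day 14 and 0.36 on day 28. Members beyond it were Nctc1 (0.54), Rian (0.38) and Airn (0.33) on day 14, and Kcnq1ot1 (-0.46) and Igf2os (0.38) on day 28. None of these differences was called, and the share of all features beyond the SD was not counted.

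**Figure D4:**
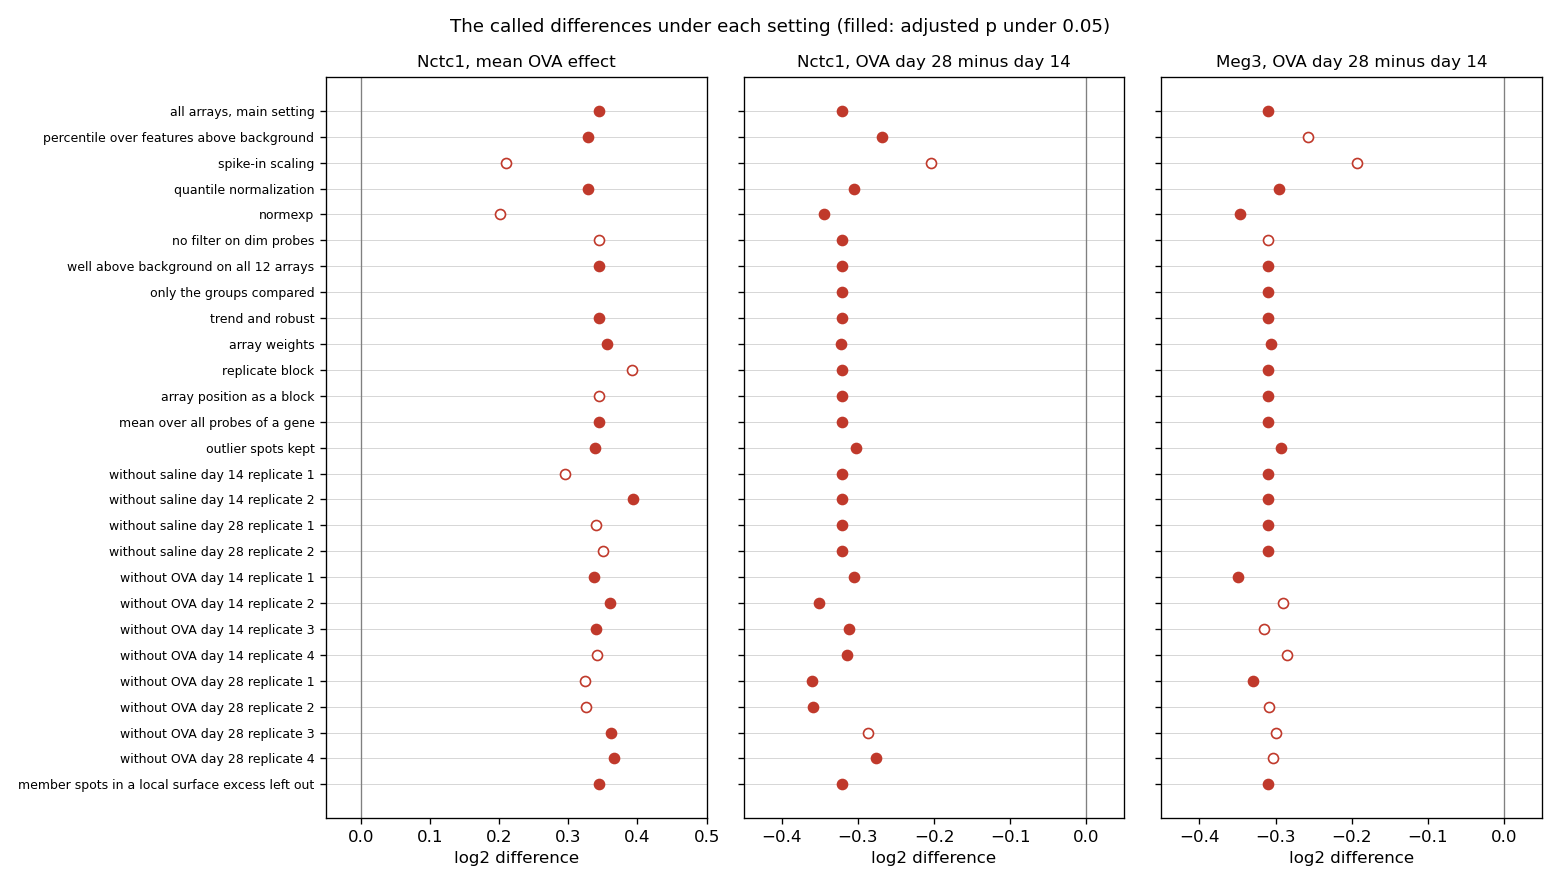
Log2 differences of the 3 called member comparisons (x axis) under the main setting and each alternative (rows), in 1 panel each, with filled points where the adjusted p was under 0.05. The Nctc1 difference averaged over both days stays positive between 0.20 and 0.39 in 25 alternatives while its call comes and goes, and the Meg3 difference between the OVA groups stays between -0.35 and -0.19.

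Named non-coding genes annotated within 1 Mb of a member and tested on the array numbered 14. Against saline, 0 of them were called on day 14 and 1 on day 28: Prr33, a neighbour of Nctc1, was lower in OVA by 0.66 ± 0.17 (SE; difference -0.66, adjusted p = 0.0282 by limma). Of the 2514 named genes tested, 2 were higher and 0 lower on day 14, and 137 were higher and 80 lower on day 28. Over all features 14.1% were called on day 28. Between OVA day 28 and OVA day 14, 1 was higher, Gm34895 (0.61, adjusted p = 0.0221 by limma), 547 kb from Rian and 637 kb from Meg3. The 5 lower ones were Prr33 (-0.53), 38 kb from Nctc1, and Gm31725 (-0.33), 298 kb from Peg13. The others were B930059L03Rik (-0.32) and Gm35558 (-0.31), 930 and 935 kb from Rian, and Gm41530 (-0.30), 796 kb from Airn. The OVA groups overlapped for B930059L03Rik. Neighbours were not refitted under the alternative settings. Relative to the array percentile, Prr33 and Nctc1 were both lower on OVA day 28 than on OVA day 14. On day 28 the Nctc1 difference from saline was 0.15 and was not called. A link between the 2 genes was not tested. Over all 2514 named genes tested, 276 were higher and 387 lower between the OVA groups.

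The named genes whose centred profile over the 12 arrays lay nearest to a member's, out of 157 candidates with names other than clone or Gm names, are given as a description. For Nctc1 these were Kis2 and Lincred2, at a root-mean-square distance of 0.13 and 0.15 log2 units, where the median candidate lay at 0.31 and Nctc1's own SD was 0.23. For Meg3 they were Rpph1 and Tincr, at 0.11 and 0.12, against a median of 0.28 and an own SD of 0.16. For Igf2os they were Chchd7 and Pmis2, at 0.11 and 0.16, against an own SD of 0.18. The nearest genes to Kcnq1ot1 (Hnf4aos and Six3os1), Rian (Mir22hg and Trp53cor1) and Airn (Fam120aos and Mir22hg) lay at 0.22 to 0.25. Those of Peg13 (H2-K2 and Morrbid) lay at 0.13 and 0.15. The own SDs were 0.32 for Kcnq1ot1, 0.28 for Rian, 0.30 for Airn and 0.17 for Peg13, so these distances were not far below that of a flat profile. Members were left out of the candidates, so the distances between members were not looked at.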

How the data were processed

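Per the file headers, each array was read with Agilent Feature Extraction 11.5.1.1, whereas the submitters' processing notes name version 9.1. The deposited values used are spot intensity on a linear scale, which that program had background-corrected. The deposited value table of catalogue probes holds none of the members and was not used here. From the intensity, log2 was taken and each array's 75th percentile subtracted; control spots and outlier-flagged spots were left out, spots of a probe were averaged, and probes were named by RefSeq accession without version through a GRCm38.p6 table (4654 of 13009 matched). No non-control spot was saturated. A feature was tested when, in 1 or more groups, all its spots on all arrays exceeded background by the scanner flag, so a member could pass through 1 group alone.

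All 12 arrays entered 1 limma model (limma 3.58.1, R 4.3.3; 4 groups, 8 residual degrees of freedom, eBayes, Benjamini-Hochberg over 72515 features), tested on simulated data. The 6 comparisons named in the text were made. Precision is limited by the number of arrays, chiefly the 2 saline arrays a day. The members, the lists of imprinted and marker genes, the 1 Mb neighbourhood and the rule for nearest profiles (2 per member) were chosen with earlier results of these data known. Each member is described in full. Other imprinted genes are named where they had a probe, neighbours where they were called, and both choices give no independent support. The alternatives were other scalings, background corrections, filters, fits, variance models, blocks, probe rules and the omission of each array; normexp (offset 50) used the median spot signal, because the mean signal is not among the columns. Promoter windows come from RefSeq.

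The labels number the replicates alike in all groups. Same-numbered samples' deviations from their group means correlated between -0.18 and 0.32, over 0.1 in 4 of 14 pairs, so the numbers were not taken as pairs.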

Additional observations from a re-analysis of the deposited data

How the results depend on the processing

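Limits: slide and group coincide, 2 saline arrays carry each day's baseline, and Rian, Airn and Kcnq1ot1 are dim, with 11 of 12 arrays above background. Spike-in scaling lowers every OVA against saline difference of day 14 by 0.25 and raises every OVA day 28 minus OVA day 14 difference by 0.12.

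The number of called members in the mean OVA effect (1) became 0 with spike-in scaling, normexp, no filter, the replicate block (Nctc1 0.39, adjusted p = 0.0808) and the array position block, and was 0 to 1 when arrays were left out; the Nctc1 call was lost without saline day 14 replicate 1, either saline array of day 28, OVA day 14 replicate 4, and OVA day 28 replicate 1 or 2. Between the OVA groups (2) it became 5 with normexp (Meg3, Nctc1, Rian -0.40, Kcnq1ot1 -0.32, Airn -0.27), 1 with no filter or the percentile over bright features, 0 with spike-in scaling, and 0 to 2 when arrays were left out, 0 being without OVA day 28 replicate 3. For OVA against saline, the count of 0 became 1 on day 28 with normexp (Kcnq1ot1) or array weights (Igf2os), 0 to 1 over omissions (1 without either saline array of day 14), and 1 on day 14 with features above background on all 12 arrays (Nctc1, adjusted p = 0.047), 0 to 1 over omissions (1 without saline day 14 replicate 2, adjusted p = 0.0316). For the effect at day 28 minus day 14 it became 3 with normexp (Rian, Nctc1, Meg3), 0 to 1 over omissions (Igf2os 0.68 without saline day 14 replicate 2). Saline day 28 against day 14 gave 0 in all 26. The replicate block changed no other member count. The normexp counts of members came with more calls over all features than in the main setting. Between the OVA groups these rose from 24708 to 47598, and in the effect difference from 2138 to 22269. For OVA against saline on day 28 they rose from 10191 to 27606.

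Signs turned with spike-in scaling for Meg3 on day 14 (-0.13), Airn (0.081) and Kcnq1ot1 (0.014) in the day 28 minus day 14 effect, Rian (0.052) and Kcnq1ot1 (0.0074) between OVA groups, and Kcnq1ot1 (-0.0070) and Nctc1 (-0.055) between saline groups. With normexp they turned for Igf2os on day 14 (0.16), Rian (-0.20) and Airn (-0.13) on day 28, Airn (-0.27) and Igf2os (-0.043) between OVA groups, and Meg3 between saline groups (0.016). The replicate block turned Kcnq1ot1 on day 14 (0.0040) and Rian on day 28 (-0.024). The array position block turned Kcnq1ot1 on day 14 (0.0040), Airn in the effect difference (0.054), and Rian (-0.042) and Airn (-0.0033) between saline groups. Leaving out the Igf2os spot in the raised stretch, chosen after seeing the data, gave 0.033 on day 14. The cause was not tested.

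Leaving out arrays, ranges that cross 0 were, on day 14, Meg3 -0.020 to 0.27, Airn -0.13 to 0.80, Igf2os -0.29 to 0.21 and Peg13 -0.45 to 0.13; on day 28, Meg3 -0.33 to 0.013 and Peg13 -0.046 to 0.19; in the mean effect, Meg3 -0.10 to 0.070 and Peg13 -0.19 to 0.10; in the effect difference, Airn -0.62 to 0.31, Kcnq1ot1 -0.35 to 0.013 and Peg13 -0.061 to 0.52; between OVA groups, Airn -0.078 to 0.17, Rian -0.28 to 0.043 and Kcnq1ot1 -0.24 to 0.13; between saline groups, Meg3 -0.20 to 0.15, Airn -0.26 to 0.67, Peg13 -0.39 to 0.19, Igf2os -0.46 to 0.043 and Nctc1 -0.032 to 0.16.

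Over all features, counts of calls ranged over the alternatives from 0 to 2309 on day 14, 1886 to 27606 on day 28, 503 to 8048 for the mean effect, 0 to 22269 for the effect difference, 19067 to 47598 between OVA groups and 0 to 1892 between saline groups. The share called as higher was, with spike-in scaling against the main scaling, 7.28% against 91.8% on day 14, 15.5% against 76.0% in the mean effect, 97.3% against 53.9% in the effect difference and 71.6% against 43.9% between OVA groups. With normexp that share was 90.3% on day 14, 51.9% in the mean effect, 14.7% in the effect difference and 19.5% between OVA groups. On day 28 it was 23% with normexp against 52.9% in the main setting.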
